A study of Mus musculus with 22 samples.

Results

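The regions described here are 1183 stretches of 1 kb that lost methylation in the livers of Rlf mutant mouse embryos at E14.5. They were chosen by their E14.5 liver methylation from 574594 stretches of chromosomes 1 to 19 that held at least 8 CpGs, each covered by at least 6 reads in all 12 whole genome bisulphite libraries. The methylation of a region was its summed unconverted cytosines over its summed reads, and a region was kept when the higher of the 2 mutant livers lay at least 5 percentage points below the lower of the 2 wild-type livers. The mirrored rule found 21498 regions that gained methylation. With each library centred on its median region, a scaling tried after the data were seen, 5982 regions lost (among them all 1183) and 7718 gained methylation. Because the E14.5 livers selected the regions, their E14.5 values are a description with no test, and the E10.5 embryos and E18.5 livers served as independent readouts.

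All mice were of the Line3 FVB/NJ background and were homozygous for a multi-copy GFP reporter under erythroid human alpha-globin control elements, in wild types and mutants alike. Mutants (Rlf_KO) were homozygous for MommeD28, a null allele of Rlf produced by ENU mutagenesis, and wild types (wt) carried no mutant Rlf allele. Each genotype had 2 bisulphite libraries from E10.5 whole embryos, 2 from E14.5 livers and 2 from E18.5 livers, and 3 RNA-seq libraries from E14.5 livers. The E10.5 embryos were all male, the E18.5 livers all female, and the bisulphite-sequenced E14.5 livers comprised 1 male and 1 female per genotype, so that stage, tissue and sex cannot be told apart when E10.5 is set against E18.5. Only autosomes were used. The reads over CpGs numbered 319866478 to 363002202 per library at E10.5 and E18.5 and 628996114 to 710952704 at E14.5, and a median region had 422 reads in an E14.5 liver, which gave a counting error of 2.26 points. The unconverted share at the lambda spike-in was 0.0412% to 0.0775%. E18.5 Rlf_KO replicate 1 stood apart, with 65.51% methylation over autosomal CpGs against 61.39% in replicate 2 and 61.35% and 61.68% in the wild types, and E18.5 counts and means over the regions are also given without it.

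In mammals most CpGs outside of CpG islands are methylated. Dnmt3a and Dnmt3b set new methylation, Dnmt1 with Uhrf1 copies it at replication, and the Tet enzymes start its removal. Fetal liver holds many dividing erythroid cells next to hepatoblasts, and erythroid maturation is known for a genome-wide loss of methylation. Rlf is a zinc finger protein recovered in a screen for modifiers of epigenetic silencing. Its mRNA was 70.0, 72.3 and 68.9 CPM (counts scaled to library size) in the wild-type E14.5 livers and 76.3, 79.8 and 67.6 in the mutants, with a log2 fold change of 0.08 (SE 0.07, edgeR adjusted p = 0.646). The groups overlapped, so the transcript level did not tell the genotypes apart for this allele.

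The sequences on which the results turn are shown first. They were taken from the mm9 (NCBIM37) reference, on its plus strand with the CpGs of the reference in capitals because CpGs carry the readout, and they are the bases of C57BL/6J and not of the FVB/NJ mice. The pair of windows on chromosomes 3 and 4 came from the only regions called less methylated in both E10.5 embryos and E18.5 livers. The windows on chromosomes 16, 5 and 13 surround the most affected CpG of the leading regions that were lower at both stages without a call at both. The chromosome 9 window, in Atm, came from the region with the widest gap at E14.5.

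chr3:48866099-48866220: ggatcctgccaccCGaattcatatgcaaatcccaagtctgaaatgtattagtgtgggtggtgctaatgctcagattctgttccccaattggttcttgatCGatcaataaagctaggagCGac
chr4:88287600-88287721: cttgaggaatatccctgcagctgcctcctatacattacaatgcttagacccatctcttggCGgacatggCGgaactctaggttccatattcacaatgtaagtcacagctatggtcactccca
chr16:97041477-97041598: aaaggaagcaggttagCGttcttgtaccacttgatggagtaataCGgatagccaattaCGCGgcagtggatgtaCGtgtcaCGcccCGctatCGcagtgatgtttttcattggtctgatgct
chr5:34297147-34297268: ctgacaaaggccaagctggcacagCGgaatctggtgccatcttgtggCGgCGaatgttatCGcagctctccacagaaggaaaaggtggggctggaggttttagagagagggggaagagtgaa
chr13:74577892-74578000: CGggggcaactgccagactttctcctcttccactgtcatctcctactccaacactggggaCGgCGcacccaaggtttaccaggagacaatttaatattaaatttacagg
chr9:53316130-53316251: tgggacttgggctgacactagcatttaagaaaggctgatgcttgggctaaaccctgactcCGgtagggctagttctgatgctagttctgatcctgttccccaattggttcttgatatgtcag

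The chromosome 3 and chromosome 9 windows share a run of 23 bases word for word, printed here on its own because a search for it over all regions is described further on.

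Shared run: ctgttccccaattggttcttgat

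Another sequence recurred in 36 of the regions. A stretch of 240 bases from one of them shows it, with the words of 20 bases that were frequent among the regions in capitals, whatever CpGs they hold.

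chr9:18725742-18725981: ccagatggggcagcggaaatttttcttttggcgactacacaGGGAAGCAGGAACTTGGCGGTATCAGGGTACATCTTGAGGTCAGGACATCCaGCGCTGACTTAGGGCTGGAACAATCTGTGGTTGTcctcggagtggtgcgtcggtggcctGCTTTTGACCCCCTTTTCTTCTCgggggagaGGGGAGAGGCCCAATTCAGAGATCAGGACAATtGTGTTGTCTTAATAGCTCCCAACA

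The last window lies in the first kilobase of Zfp507, with CpGs in capitals. It is shown because this kilobase gained methylation while 12 other regions of the gene lost it.

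chr7:36587457-36587578: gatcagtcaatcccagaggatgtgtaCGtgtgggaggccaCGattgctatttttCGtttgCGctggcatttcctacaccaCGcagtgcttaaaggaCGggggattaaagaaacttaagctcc

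In E14.5 liver the mean methylation of the 1183 regions was 58.3% and 58.6% in the wild types and 50.1% and 49.5% in the mutants, a difference of -8.68 points set by the selection. Over all 574594 regions the E14.5 difference was 1.96 points in the other direction. The gap between genotypes was 5 to 6 points at 555 regions, 6 to 8 at 447, 8 to 10 at 109 and 10 or more at 72. Just inside the threshold lay a coding stretch of Sec31a with a gap of 5.0049 points and one of Nhsl1 with 5.0056, and just outside lay intergenic regions with gaps of 4.9992 and 4.9985. How many regions pass depended on both livers of each genotype being required: when 1 E14.5 liver was left out and the regions were chosen anew, 3512 to 12798 regions passed.

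**Figure D1:**
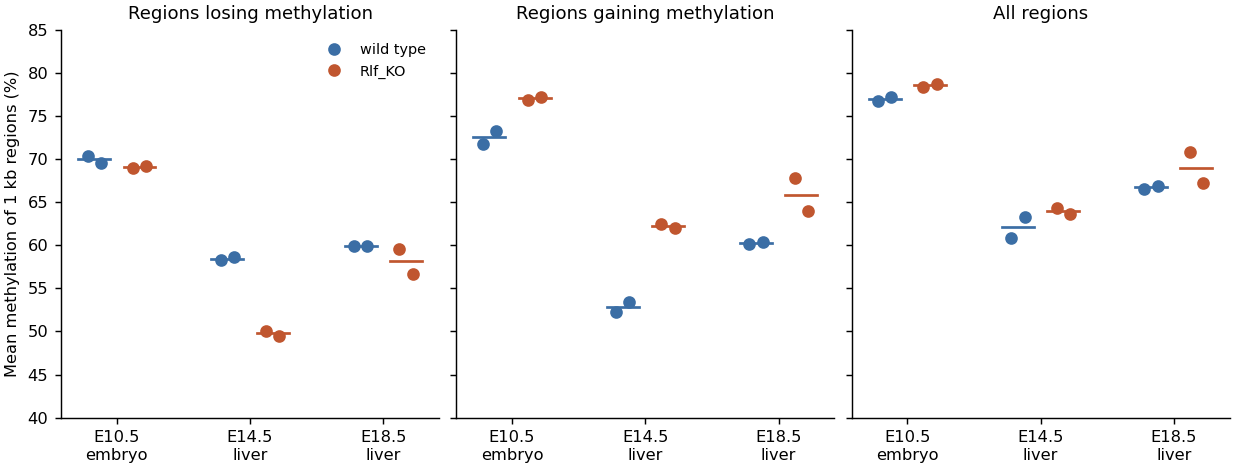
Mean methylation (%) of the chosen 1 kb regions (left), of regions that gained methylation by the mirrored rule (middle) and of all regions (right), by stage. Each point is 1 library and each bar the mean of 2, with wild types in blue and Rlf_KO in orange. In the regions losing methylation the genotypes differ (mutant minus wild type) by -8.68 points at E14.5, by -0.873 at E10.5 and by -1.74 at E18.5, where the 2 mutant livers lie apart.

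Outside of E14.5 liver the loss was small on average, beside a gain over all regions. In E10.5 embryos the regions had a mean methylation of 70.0% ± 0.604 (SD, n = 2) in wild types and 69.1% ± 0.188 (SD, n = 2) in mutants, a difference of -0.873 points. All regions together gained 1.58 points in the same embryos and the regions of the mirrored rule gained 4.57. In E18.5 livers the regions had 59.9% ± 0.0407 (SD, n = 2) in wild types and 58.2% ± 2.07 (SD, n = 2) in mutants, a difference of -1.74 points that is smaller than the spread between the mutant livers. All regions gained 2.26 points there. Without E18.5 Rlf_KO replicate 1 the difference was -3.2 points beside 0.51 for all regions, and without replicate 2 it was -0.27 beside 4.01. With centred libraries the 1183 regions differed by -2.27 points in E10.5 beside 0.181 for all regions, and by -4.25 in E18.5 beside -0.255. The small values over all regions follow from the centring, which gives each library the same median. When 1 E14.5 liver was left out and a longer list was chosen, the mean differences were 0.00938 to 0.685 points in E10.5 and -0.428 to 1.08 in E18.5.

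Counted region by region, both mutants lay below both wild types at 286 of 1183 regions in E10.5 embryos, which is 24.2% beside 9.28% of all regions. In E18.5 livers the same held for 349 regions, 29.5% beside 6.46% of all. Both mutants lay above both wild types at 201 regions in E10.5 (17% beside 31.5% of all) and at 152 in E18.5 (12.8% beside 31.2%), or 229 (19.4% beside 37.4%) without E18.5 Rlf_KO replicate 1. Without E18.5 Rlf_KO replicate 1 the remaining mutant lay below both wild types at 54.9% of the regions and 30.6% of all. With centred libraries both mutants lay below both wild types at 35% of the regions in E10.5 and 46.2% in E18.5, beside 22.6% and 22.3% of all regions. Without centring, both readout stages had this order at 130 regions, 11% beside 0.838% of all, and at 196 (16.6% beside 3.32%) without E18.5 Rlf_KO replicate 1.

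**Figure D2:**
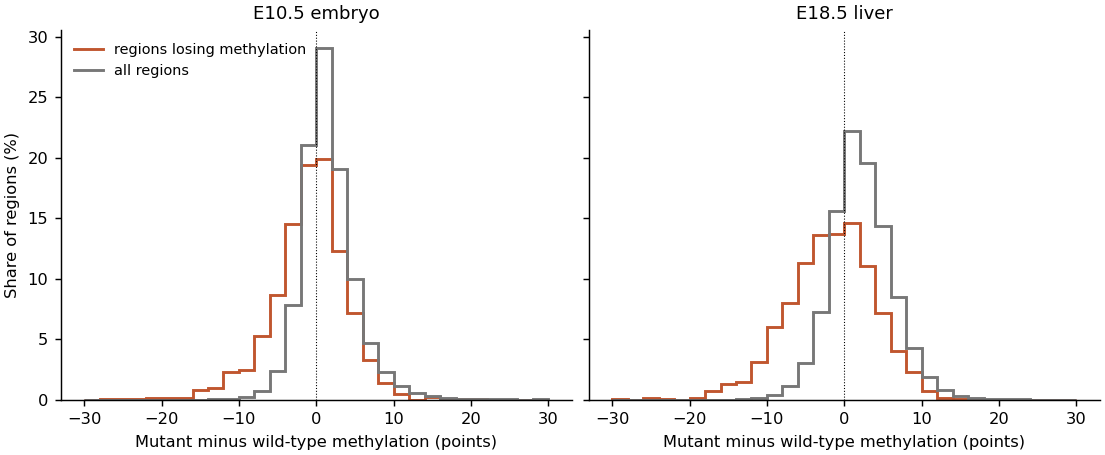
Mutant minus wild-type methylation (percentage points, horizontal) against the share of regions (%, vertical) in 2-point bins for E10.5 embryos and E18.5 livers, with the outermost bins also holding values past 30 points. The 1183 regions (orange) have medians of -0.443 and -1.41 points and all regions (grey) have medians of 1.14 and 2.01.

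The edgeR quasi-likelihood test on methylated and unmethylated read counts, fitted over all 574594 regions, called 12 of the 1183 regions less methylated in E10.5 mutants (1.01% beside 0.0137% of all) and 2 more methylated (0.169% beside 0.731%). In E18.5 livers 11 were called less methylated (0.93% beside 0.00957% of all) and 0 more methylated (beside 0.222%). At an unadjusted p under 0.05, 102 regions were lower (8.62% beside 1.14%) and 41 higher (3.47% beside 9.78%) in E10.5, and 121 were lower (10.2% beside 0.619%) and 20 higher (1.69% beside 7.03%) in E18.5. The unadjusted counts in E18.5 without Rlf_KO replicate 1 were 181 lower (15.3% beside 2.69%) and 18 higher (1.52% beside 4.52%). By limma on logit values 0 of the regions were called lower in E10.5 (beside 0.000174% of all) and 1 in E18.5 (beside 0.00261%), with 75 (6.34% beside 1.37%) and 96 (8.11% beside 0.779%) at an unadjusted p under 0.05. The number called depended on single libraries, among these regions and over all regions alike. Fewer were called without E10.5 wt replicate 1 or without either E18.5 wild type, and more without either E18.5 mutant. Such fits kept 1 library in a genotype. Only 2 regions were called lower in both stages (0.169% beside 0.00122% of all). A test of whether the genotype difference itself changed between E10.5 and E18.5 called 0 of the regions with edgeR (beside 0.00122% of all), 71 at an unadjusted p under 0.05 (6% beside 4.18%), and 0 with limma.

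Regions with a wider gap at E14.5 had larger differences at the other stages. Among regions with a gap of 5 to 6 points the mean difference was -0.411 points in E10.5 and -0.693 in E18.5, and both mutants lay below both wild types at 22.5% and 23.8%. Among the 72 regions with a gap of 10 points or more the mean differences were -4.27 and -6.11 points, and both mutants were lower at 43.1% and 58.3%. With E18.5 Rlf_KO replicate 1 left out, the E18.5 mean differences of these bins were -2.23 and -7.02 points and the shares 48.6% and 75%. The same rule applied at the other stages, a higher mutant at least 5 points below the lower wild type, was met by 58 of the regions in E10.5 (4.90% beside 0.278% of all) and by 112 in E18.5 (9.47% beside 0.406%). Without E18.5 Rlf_KO replicate 1 the remaining mutant met it at 296 of the regions (25% beside 5.78% of all). The 58 and 112 regions were 3.63% and 4.80% of all regions that met it at that stage.

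The starting level also separated the regions. Of the 1183, 186 had 20% to 50% methylation in E10.5 wild types. This share of 15.7% stands beside 4.14% of all regions and 10.1% of those that gained by the mirrored rule. In E18.5 liver these 186 differed by -4.02 points and both mutants were lower at 49.5%, whereas all regions of that level gained 2.41 points and 10.7% were lower. The 514 regions at 80% or more in E10.5 wild types differed by -0.305 points in E18.5 and both mutants were lower at 18.9%, whereas all regions of that level gained 2.18 points and 5.78% were lower. The E18.5 differences of these strata without Rlf_KO replicate 1 were -5.15 and -1.93 points, beside 0.988 and 0.334 for all regions of the same level, and the remaining mutant was lower at 70.4% and 46.7%, beside 31.5% and 31.3% of all. Regions of the mirrored rule also changed more at the lower level, gaining 9.28 points in E18.5 at 20% to 50% and 3.93 at 80% or more. Between E10.5 and E18.5 the wild types themselves fell by 10.1 points over the regions and by 10.3 over all regions.

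Measured at the stages that did not choose the regions, the kilobases on either side had less of the loss than the regions themselves. In E10.5 embryos the neighbours at 1 kb differed by 0.231 and 0.277 points, against -0.873 in the region, and those at 10 kb by 1.47 and 1.55. In E18.5 livers the neighbours at 1 kb differed by 0.0129 and 0.374 points, against -1.74 in the region, and those at 10 kb by 2.04 and 2.02. When E18.5 Rlf_KO replicate 1 was left out they differed by -1.41 and -1.14 points at 1 kb, against -3.2 in the region, and by 0.34 and 0.305 at 10 kb. The neighbours at 1 kb thus lay between the regions and those at 10 kb at both stages. In E14.5 liver the neighbours at 1 kb differed by -0.659 and -0.692 points, and the depth of the region itself was set by the selection. Of 1152 separate stretches, 1125 were a single region, 25 were pairs and 2 were longer, the longest with 5 regions in a row, in Zfp507, and the next with 3 in an intron of Srebf2, a sterol-responsive transcription factor gene (chr15:81995001-81998000). The first of the Srebf2 regions had 39.7% and 37.6% in E14.5 wild types against 31.7% and 30.8% in mutants, and none of the 3 was below the wild types in both E10.5 mutants (adjusted p = 0.42 to 0.965 there and 0.759 to 0.954 in E18.5).

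**Figure D3:**
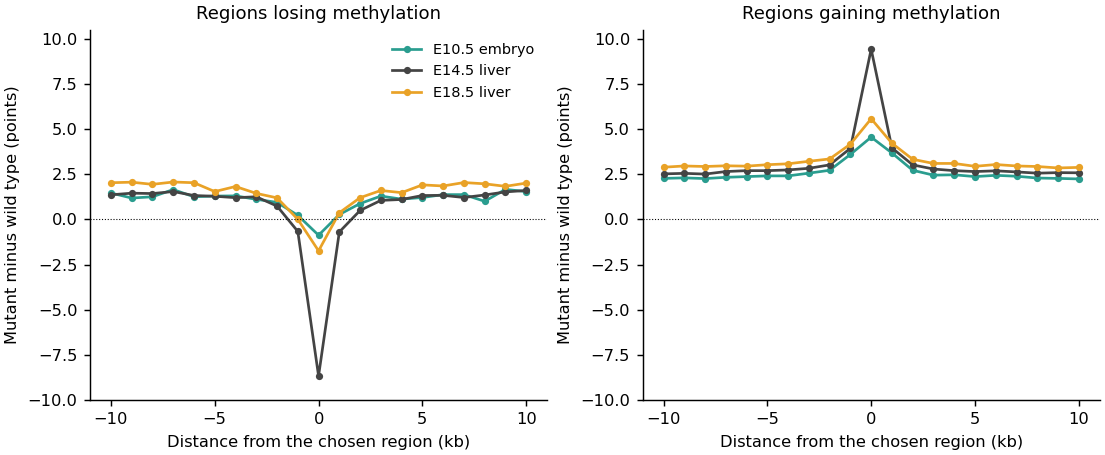
Mean mutant minus wild-type methylation (points) of the chosen 1 kb regions and of regions up to 10 kb away on both sides, at E10.5, E14.5 and E18.5, for regions losing (left) and gaining (right) methylation. The E14.5 values at distance 0 were set by the selection. Values at 1 kb (-0.692 to 0.374 points) lie below those further away, which reach 1.37 to 2.04 points at -10 kb.

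The first of the 2 regions called lower at both stages, chr3:48866001-48867000, lay between genes, 452978 bp from 1700018B24Rik. Its methylation over 10 CpGs was 76.6% and 77.6% in E10.5 wild types and 53.8% and 58.3% in mutants, 60% and 59% against 51.8% and 42.7% in E14.5 liver, and 74.1% and 63.8% against 44.1% and 42.3% in E18.5 liver. Both mutants were lower at each stage, and all 10 CpGs were lower on average in E10.5 and in E18.5. The difference was -21.1 points in E10.5 (adjusted p = 0.0013) and -25.7 points in E18.5 (adjusted p = 0.000952). Leaving out 1 wild-type liver ended the E18.5 call, with adjusted p-values of 1 and 0.0522. Of the CpGs in capitals in its window, the first was not among the 10 measured. The second, at 48866198, had 95.2% in E10.5 wild types and 67.2% in mutants, and the third, at 48866217, had 82% and 68.3%. The window was centred on a measured position, 48866159, that is no CpG in the reference shown, and it had 90.3% and 51.1% in E10.5 over 7 to 30 reads.

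The second region, chr4:88287001-88288000, lay 1545 bp from Ifna13, a type I interferon gene, and had low methylation throughout. Over 11 CpGs it was 26.7% and 18.3% in E10.5 wild types against 10.2% and 8.49% in mutants, 22.4% and 23.5% against 11.4% and 11.4% in E14.5 liver, and 21.3% and 18.9% against 9.09% and 5.05% in E18.5 liver. All 11 CpGs were lower in the mutants at E10.5 and E18.5. The differences were -13.2 points (adjusted p = 0.00296) and -13.0 points (adjusted p = 0.0011). The E10.5 call was lost without wt replicate 1 (adjusted p = 0.241) and the E18.5 call without wt replicate 1 or 2 (adjusted p = 0.563 and 0.149). Without E18.5 Rlf_KO replicate 1 the E18.5 difference was -15.1 points (adjusted p = 5.37e-05).

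**Figure D4:**
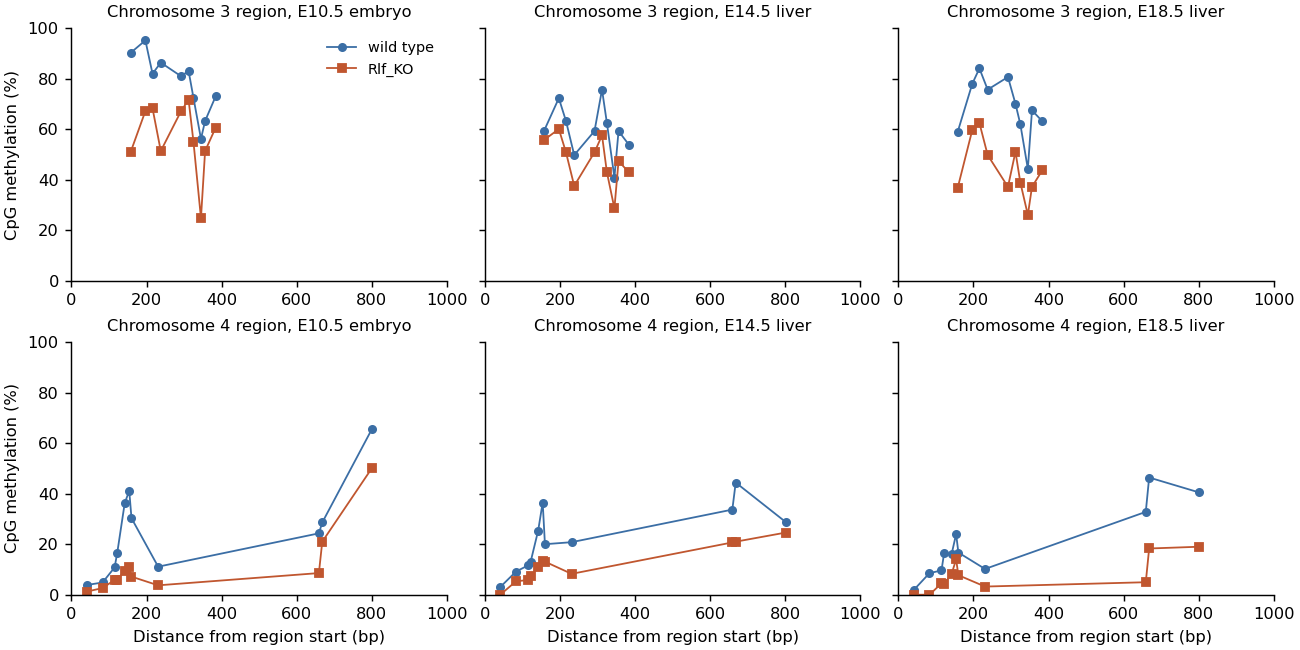
Methylation (%) of each CpG along the 2 regions called lower in both readout stages, against distance (bp) from the start of the 1 kb region, as the mean of 2 wild-type (blue circles) and 2 Rlf_KO (orange squares) libraries. The upper row is the chromosome 3 region, where all 10 CpGs are lower in mutants at E10.5 and E18.5, and the lower row the chromosome 4 region, where all 11 are.

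Ranked by the smaller of the E10.5 and E18.5 gaps, the leading regions besides the chromosome 3 one lay in Dscam, in Thap3 and between genes.

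The Dscam region, chr16:97041001-97042000, covered coding exon 8 of 33 of this neuronal adhesion molecule gene. It had 48.2% and 47.6% methylation in E10.5 wild types against 32.3% and 33.8% in mutants, and 34.1% and 30.9% against 16.5% and 18.1% in E18.5 liver. The genotypes did not overlap at either stage, but the test did not pass (adjusted p = 0.0914 and 0.059). The region at chr5:34297001-34298000, 17939 bp from Whsc2, had 63.2% and 63.3% against 44.2% and 40.8% in E10.5 and 54.6% and 46.2% against 36.3% and 36.2% in E18.5. It was called in E10.5 (difference -20.7 points, adjusted p = 0.00341) and missed the threshold in E18.5 (-14.2 points, adjusted p = 0.325). At chr13:74577001-74578000, an intergenic region with 21 CpGs, the E10.5 values were 42.3% and 37.2% against 21.2% and 27.3% (adjusted p = 0.0141) and the E18.5 values 41.5% and 47.5% against 29.4% and 30.3% (adjusted p = 0.13). The E10.5 call was lost without wt replicate 1 or Rlf_KO replicate 1 (adjusted p = 0.255 and 0.186).

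The Thap3 region, chr4:151357001-151358000, held exons 3 and 4 of 4 with coding and untranslated sequence, and had 31 CpGs. In E10.5 it had 65.2% and 62.7% in wild types and 51.1% and 47.6% in mutants and was called (adjusted p = 0.0343), though not with a coverage minimum of 10 reads or in 3 of 4 fits that left out 1 library. In E18.5 it had 69.6% and 68.7% in wild types and 57.9% and 57.3% in mutants, which did not overlap but did not pass the test (adjusted p = 0.366). Thap3, a THAP domain gene, had an E14.5 liver log2 fold change of 0.12 (adjusted p = 0.765).

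Of the 5 regions with the widest E14.5 gap, 1 was called at another stage. The widest gap, 18.1 points, was at chr9:53316001-53317000 over coding exon 15 of 64 of Atm, a kinase of the DNA damage response. There the E14.5 values were 75.9% and 74.5% in wild types and 56.4% and 48.2% in mutants. In E18.5 they were 85.6% and 82.4% against 67.8% and 66.8%, a difference of -16.7 points (adjusted p = 0.0182), and in E10.5 88.3% and 82.1% against 69.9% and 79.5% (-10.4 points, adjusted p = 0.114). The E18.5 call was lost without wt replicate 1 or 2 (adjusted p = 1 and 0.673). Atm mRNA had a log2 fold change of 0.13 (adjusted p = 0.601).

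The next 4 differed less elsewhere. At chr4:137280001-137281000, over coding exon 19 of 25 of Rap1gap, the E14.5 values were 37.9% and 40.1% against 21% and 20.8%, while in E18.5 the values were 28.1% and 37.7% against 34.2% and 37.3% (adjusted p = 0.912). At chr11:102171001-102172000, over coding exons 9 to 12 of 21 of Ubtf, a factor for ribosomal RNA transcription, the E14.5 values were 77% and 78.8% against 54.2% and 60.4%. In E10.5 embryos the same region had 87.1% and 88.4% against 87.5% and 88.2%, a difference of 0.0846 points (adjusted p = 0.994), and in E18.5 -3.41 points (adjusted p = 0.848). The adjacent region, chr11:102172001-102173000 over exons 7 and 8, was chosen as well, with 62.1% and 60.6% against 39% and 48.2% in E14.5 liver and a difference of -10.1 points in E10.5 (adjusted p = 0.327). The intergenic regions chr5:79611001-79612000 and chr15:11336001-11337000 had gaps of 16.1 and 14.8 points at E14.5, and E18.5 differences of -3.28 and 5.40 points, neither of which passed (adjusted p = 0.924 and 0.918).

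The 23-base run shared by the chromosome 3 region called at both stages and by the Atm region, printed above, was compared over all regions because of what its carriers had in common. On either strand it occurred in 3 of the 1183 regions (0.254%) and in 29 of all regions (0.00505%). The third carrier was chr3:10342001-10343000, in an intron of Zfand1, and all 3 were among the 11 regions called lower in E18.5. The other 26 carriers, which were not chosen, gained 1.28, 2.02 and 3.20 points in E10.5, E14.5 and E18.5, and 0.543 in E18.5 without Rlf_KO replicate 1. The run was picked after the values were seen, and no test was made of it.

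A second sequence was shared more widely. Words of 20 bases found in at least 10 of the 1183 regions and at least 20 times as often as in all regions numbered 118, and 36 regions (3.04%) carried at least 1 of them, beside 708 of all regions (0.123%). Those shares were set by how the words were picked. Of the 118 words, 57 lay in the 240-base stretch of chromosome 9 printed above.

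The 36 carriers among the chosen regions were highly methylated in E10.5 embryos, 84.5% and 85.4% in wild types and 83.3% and 86.0% in mutants, with both mutants lower at 1 of 36. In E18.5 livers they had 64.6% and 65.7% in wild types and 60.7% and 58.5% in mutants, a difference of -5.52 points with both mutants lower at 17 of 36, and of -6.62 points without E18.5 Rlf_KO replicate 1, where the remaining mutant was lower at 66.7%. The 672 carriers that were not chosen differed by 0.816 points in E10.5, 0.0215 in E14.5 and -0.493 in E18.5, where all regions gained 1.58, 1.96 and 2.26 points. Both mutants lay below both wild types in E18.5 at 122 of these 672 (18.2% beside 6.46% of all regions). Without E18.5 Rlf_KO replicate 1 these 672 differed by -2.11 points, and the remaining mutant lay below both wild types at 48.7% (beside 30.6% of all regions). By the mirrored rule 5 of the 708 carriers gained methylation, 0.706% beside 3.74% of all regions. This share comes from the E14.5 values that chose the regions and through them the words, so that it is no test. The carriers' median coverage in E14.5 liver was 37.0 reads per CpG, and 34.8 in the 36 chosen carriers. It was 39.7 in the chosen regions that carried none of the words. The sequence is repeated in the genome, and a repeat name was not assigned here.

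Other regions were called at one stage. In E10.5 the largest such losses were at chr16:20497001-20498000, 890 bp from Eif2b5, a translation initiation factor subunit gene, with 51.1% and 52.3% against 28.3% and 20.1% (-27.5 points, adjusted p = 2.17e-06), at chr1:51286001-51287000 (-24.4 points, adjusted p = 0.0334) and at chr5:23197001-23198000, 14735 bp from Srpk2 (-23.6 points, adjusted p = 0.00107, but 0.168 without wt replicate 1). The chromosome 1 region had 83.4% and 55.7% in its wild types, so that 1 library set most of its difference, and without wt replicate 1 the call was lost (adjusted p = 0.725). In E18.5 livers the Eif2b5 region had 36.9% and 27.6% against 30.4% and 30.5%, and its change between stages had an adjusted p of 0.187.

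Another E10.5 call was chosen for description after its values were seen. An intronic region of 1110012J17Rik with 49 CpGs, chr17:66713001-66714000, had 89.7% and 88.9% against 81.1% and 80.3% in E10.5 (adjusted p = 0.0166) and 82.1% and 80.7% against 75.2% and 75.8% in E18.5 (adjusted p = 0.639). The genotypes did not overlap at either stage, although only the E10.5 difference passed, a call lost without wt replicate 1 or Rlf_KO replicate 2 (adjusted p = 0.182 and 0.0813).

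In E18.5 liver the largest losses besides those named were at chr3:152425001-152426000 in an intron of Pigk, a subunit of the GPI transamidase, at chr2:123580001-123581000 and at chr11:27976001-27977000. The Pigk region was at 91.4% and 90.3% against 89.4% and 90.7% in E10.5 embryos. It had 39.2% and 41.7% against 31.7% and 26.7% in E14.5 liver and 66.9% and 64.9% against 38.8% and 35.1% in E18.5 liver, a difference of -28.9 points (adjusted p = 0.000129). The chromosome 2 region, 334705 bp from Sema6d, differed by -25.3 points (adjusted p = 8.77e-07) and the chromosome 11 region by -22.3 points (adjusted p = 0.0444), against -4.64 and 1.57 points in E10.5. All 3 lost the call without E18.5 wt replicate 1, with adjusted p-values of 0.292, 0.304 and 0.453. The Pigk and chromosome 11 calls were also lost without wt replicate 2 (adjusted p = 0.109 and 1). The chromosome 11 region held 55 of the 118 repeated words.

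Chosen after their values were seen, 2 more of the called regions lay in genes. The region chr2:75816001-75817000 holds the annotated start of Ttc30a2, at 75816257 on the minus strand, and part of its single exon. It had 42.9% and 37.4% in E18.5 wild types against 25.1% and 22.9% in mutants (adjusted p = 0.0271). A region over exons 5 and 6 of 6 of Mospd3, chr5:138038001-138039000, had 50.1% and 47.1% against 31.5% and 31% (adjusted p = 0.0157). It also had 47.6% and 43.9% against 28.1% and 38.6% in E10.5, which did not pass (adjusted p = 0.0962). Both E18.5 calls, and that of the Zfand1 region that carried the shared run, were lost without wt replicate 1 or 2.

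At Zfp507, a zinc finger gene, the losses ran along the gene. It held 12 of the 1183 regions among 21 that could be measured, and 6 gene models held 3 or more. Of these, Gm20388, a gene model that spans several megabases, held 7 of 3294 measured regions. The gene lies on the minus strand at chr7:36557365-36588008, and 5 of its regions formed the longest row, chr7:36557001-36562000, over exons 6 and 7 of 7 with the 3′ untranslated region. Over the 12 regions, with 172 CpGs, the E14.5 means were 81.4% and 83.7% in wild types and 73.5% and 72.6% in mutants. In E18.5 liver they were 85.3% and 85% in wild types and 81.0% and 80.1% in mutants, a difference of -4.63 points with both mutants lower at 7 of 12, and of -5.03 points without Rlf_KO replicate 1, with the remaining mutant lower at 9 of 12. In E10.5 embryos they were 89.1% and 88.7% against 88.9% and 88.6%, a difference of -0.14 points. One of the 12, chr7:36559001-36560000, was called in E18.5 (80.7% and 76.5% against 61.4% and 59.2%, adjusted p = 0.0117), a call lost without wt replicate 1 or 2.

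The first kilobase of the same gene went the other way. The region chr7:36587001-36588000, with 55 CpGs, reaches to a few bases from the annotated start at 36588008, was not among those chosen and was singled out after its values were seen. Its methylation was 0.158% and 1.12% in E10.5 wild types and 4.10% and 8.41% in mutants (adjusted p = 5.45e-07), and 0.134% and 0.0685% against 13.1% and 6.64% in E18.5 liver (adjusted p = 2.31e-27). In E14.5 liver it was 0.325% and 0.345% against 7.124% and 10.49%. The genotypes did not overlap at any stage, and the mutants were higher on average at 51 of 55 CpGs in E10.5, 51 in E14.5 and 54 in E18.5. The E18.5 call held without each library in turn and with limma (adjusted p = 7.78e-07), and the E10.5 call held without each library but not with limma (adjusted p = 0.162). The window printed above surrounds the CpG with the largest rise, at 36587517.

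**Figure D5:**
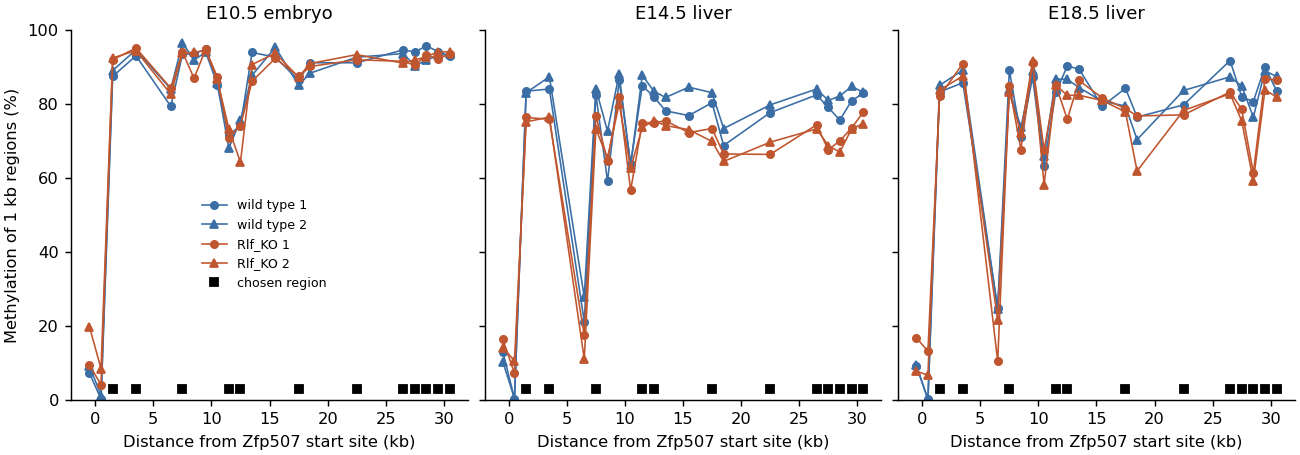
Methylation (%) of the 1 kb regions along Zfp507 against distance (kb) from its start site at E10.5, E14.5 and E18.5. Each line is 1 library, wild types in blue and Rlf_KO in orange, and black squares mark the 12 chosen regions, whose mutants lie below the wild types at E14.5 by the selection, while at 0.507 kb the mutants lie above the wild types at each stage.

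Zfp507 mRNA fell in E14.5 liver. It was at 23.42, 27.09 and 28.97 CPM in wild types and at 17.23, 17.75 and 14.46 CPM in mutants, without overlap. The log2 fold change was -0.69 (SE 0.11, edgeR adjusted p = 0.0117), and without wt replicate 3 the adjusted p was 0.0504. Reads were counted without strand, and the lincRNA Gm16929 overlaps the last exon on the other strand, so that their reads cannot be told apart there.

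A single chosen region, chr6:47895001-47896000, lay in Zfp783, another zinc finger gene whose start site gained methylation while its mRNA fell. Its 7 measured regions included the one at its start site, which gained 11.8 points in E18.5. Over all 7 the E18.5 difference was 2.03 points, with both mutants lower at 0. Their E18.5 means were 57% and 58.6% in wild types and 61.2% and 58.5% in mutants. Over the 21 of Zfp507, also with its start site, the E18.5 difference was -2.76 points, with both mutants lower at 8. These means are thus not of gene bodies alone. The chosen region had 82.0% and 78.8% in E14.5 wild types against 71.3% and 68.8% in mutants, and differed by -3.62 points in E18.5 (adjusted p = 0.858). At the start site, chr6:47893001-47894000 had 3.72% and 6.01% in E10.5 wild types against 10.54% and 10.4% in mutants (adjusted p = 0.00879) and 7.12% and 7.69% against 20.5% and 18% in E18.5 (adjusted p = 8.91e-06). Without wt replicate 1 of the stage these 2 calls were lost (adjusted p = 0.312 and 0.0782), and limma made neither (adjusted p = 0.344 and 0.0738). The kilobase before it, chr6:47892001-47893000, was singled out after its values were seen. In E18.5 it had 31.9% and 34.1% against 60.6% and 62.3% (edgeR adjusted p = 4.88e-05, limma adjusted p = 0.0435). That call was lost without wt replicate 1 or 2. In E10.5 it had 36.1% and 46.3% against 59.2% and 53% (edgeR adjusted p = 0.139). Zfp783 mRNA was at 9.84, 9.65 and 7.51 CPM in wild types and 3.34, 2.67 and 2.46 in mutants. Its log2 fold change was -1.68 (SE 0.18, edgeR adjusted p = 0.000775). Overlapping gene models carry this name, so that the counting could have split its reads.

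These 2 genes were exceptions among the genes near the regions. In the E14.5 liver RNA-seq, with 12928313 to 14621004 counts per library, 99 of 14183 genes were called higher (0.698%) and 98 lower (0.691%), 1.39% in either direction. Of 192 tested genes with a start site within 2500 bp of a chosen region, 3 were called, which is 1.56%. These were Zfp783 and Zfp507, both lower, and Cpm, a cell surface carboxypeptidase, which was higher at 73.9, 80.1 and 79.0 CPM against 52.5, 64.2 and 61.6 (log2 fold change 0.39, SE 0.08, adjusted p = 0.0366). The Cpm call was lost in 5 of 6 fits that left out 1 library. The median log2 fold change of the 192 genes was 0.0054, beside -0.0017 for all genes, and 29 of them (15.1%) had an unadjusted p under 0.05 beside 2071 of all 14183 genes. With the replicate number as a block, 460 of the 14183 genes were called, 9 of them among the 192 near the regions.

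Among writers and erasers of DNA methylation, 1 of 8 tested genes was called. Dnmt3a rose from 101, 108 and 115 CPM to 136, 139 and 131 (log2 fold change 0.32, SE 0.06, adjusted p = 0.0319), and 5 of 6 fits that left out 1 library lost this call. Uhrf1, needed for copying methylation, was at 297, 279 and 281 CPM against 267, 236 and 262 and did not pass (adjusted p = 0.29). Dnmt1 had a log2 fold change of -0.02 (adjusted p = 0.948), and the 3 Tet genes had log2 fold changes of 0.20 to 0.39 that did not pass. Dnmt3l was not tested because of low counts.

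Markers of the cells in fetal liver were compared because E14.5 methylation was measured in whole tissue, where a change in cell makeup and a change within cells cannot be told apart. The 9 erythroid markers and the 9 hepatoblast markers had 0 called genes with edgeR, with or without pairing by replicate number, and with DESeq2, and 1 of each (Klf1, log2 fold change -0.21, and Alb, 0.27) had an unadjusted p under 0.05. The summed level of the erythroid list was 28724 to 53375 CPM in wild types and 35926 to 38941 in mutants. That of the hepatoblast list was 56806 to 67446 against 69322 to 80460, which did not overlap. Most of it came from Alb (23322 to 28380 against 30685 to 34945) and Afp (27143 to 32430 against 31638 to 37862). The other hepatoblast markers had log2 fold changes of -0.04 (Krt8) to 0.13 (Hnf4a). The median log2 fold change was 0.111 for the hepatoblast list. It was -0.154 for the erythroid list, where only Tfrc was higher (0.025). Of 5 megakaryocyte markers, Pf4 rose (log2 fold change 0.40, adjusted p = 0.0143), with a summed level of 474 to 495 CPM against 557 to 627, which did not overlap. Of these 5, 4 (Ppbp, Pf4, Gp9 and Itga2b) had an unadjusted p under 0.05 and DESeq2 called 2. With the replicate number as a block edgeR called Pf4 and Itga2b. The Pf4 call was lost without wt replicate 3 or Rlf_KO replicate 3 (adjusted p = 0.0665 and 0.0652). Of 6 neutrophil markers, S100a8, S100a9 and Elane fell (log2 fold changes of -0.67, -0.69 and -0.76, edgeR adjusted p = 0.0187, 0.0449 and 0.0493). Mpo, Ctsg and Prtn3 were not called (0.13, -0.03 and -0.02). The summed level of the list was 722 to 1024 CPM against 630 to 749, which overlapped. With the replicate number as a block edgeR called the same 3, and DESeq2 called 1. The Elane call was lost in 5 of 6 fits that left out 1 library, that of S100a9 in 4 and that of S100a8 in 2. Of the macrophage, endothelial and mesenchymal markers 0 were called with edgeR or DESeq2 (with pairing by replicate number Marco, a macrophage marker, was called lower), and 2, 4 and 2 had an unadjusted p under 0.05. Their summed levels were 421 to 443 CPM in wild types against 379 to 401 in mutants for macrophages (Emr1 and Marco), 268 to 295 against 297 to 347 for endothelium (Tek, Lyve1, Stab2 and Kdr) and 726 to 960 against 787 to 1199 for mesenchyme (Dcn and Pdgfrb), so that the first 2 lists did not overlap. Among the macrophage markers, Marco was at 95.8, 93.5 and 143 CPM in wild types and 81.7, 75.9 and 63.1 in mutants. The other macrophage markers had log2 fold changes of -0.26 (Emr1) to 0.22 (Cd68), and the list had a median of -0.0165. The part of all these cell types in the methylation losses was not tested.

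The regions were compared with all regions in sequence and position, as a description. Their median GC content was 46.3% beside 46.9% for all regions, with 15 reference CpGs beside 14. A protein-coding start site lay in 27 of them (2.28% beside 3.82%), an exon in 211 (17.8% beside 18.1%), an intron in 359 (30.3% beside 34.0%), and 586 lay between genes (49.5% beside 44.1%). Exons were less frequent in the regions that gained methylation, at 10.8%. On either strand the GATA-type word AGATAA was in 40.9% of the regions and 40.1% of all, the E-box CAGATG in 58.8% and 58.3%, the KLF-type word CCACACCC in 8.54% and 8.74%, and the forkhead word TGTTTAC in 15.9% and 13.3%. GTTAAT was in 25.9% and 25.6%, and TTGCNNCAA in 7.44% and 8.37%. The regions numbered 1.53 to 2.81 per 1000 eligible ones on the 19 chromosomes. Within 5 Mb of Rlf on chromosome 4, 12 of 3827 were chosen, 3.14 per 1000 beside 2.06 overall.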

How the data were processed

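Bisulphite counts per CpG were deposited by the authors as reads and unconverted cytosines for 12 libraries (Bismark with Bowtie2 on mm9, FVB substitutions allowed for, per the labels and methods), and RNA-seq counts per gene for 6 (TopHat, HTSeq, without strand, Ensembl annotation). Counts were summed per 1 kb region. The regions and all gene lists were chosen with earlier results of these data known. Tests were edgeR 4.0.16 quasi-likelihood fits over all regions (1 common dispersion, a term for each library) or genes (TMM, low counts filtered with filterByExpr), with Benjamini-Hochberg adjustment at 0.05, and were checked on simulated data. Alternatives used limma 3.58.1 (offset 2) and DESeq2 1.42.0. Regions named were the 5 widest E14.5 gaps, those called at both readout stages or leading by the smaller gap, the leading calls at 1 stage, calls in the other direction, those at the threshold and the longest rows. Genes named were those called near a region and markers that were called. Replicates were separate embryos. Whether RNA replicate numbers pair the livers is not stated in the labels. The deviations of same-numbered livers from their group means correlated by 0.155, 0.22 and 0.426 over 14183 genes. Replicate 3 was the female of each genotype and replicates 1 and 2 were male, so that sex and replicate number overlap in part. With sex as a covariate 208 genes were called, beside 197 in the main fit and 460 with the replicate number as a block. The source of the difference was not tested. Sequences were read with samtools from NCBIM37, with GENCODE genes. H3K4me1 samples were not analysed here. Counting errors cover sampling of reads only.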

Additional observations from a re-analysis of the deposited data

Results flagged for a closer look

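At 2 of the 1183 regions the E10.5 mutants were called more methylated than the wild types, the reverse of the E14.5 direction that chose them. The first was chr5:125747001-125748000, 9457 bp from Scarb1, which encodes an HDL receptor. It had 48.0% and 53.2% methylation in E10.5 wild types and 71.8% and 69.5% in mutants, a difference of 20.1 points (edgeR adjusted p = 0.000955), against -11.9 points in E14.5 liver and -0.751 in E18.5 liver. The second was chr7:4694001-4695000, over coding exons 4 to 6 of 9 of Suv420h2, a histone methyltransferase gene, with 76.6% and 81.2% against 88.9% and 89.5% in E10.5, a difference of 10.3 points (adjusted p = 0.0425), against -7.51 points in E14.5 and -1.50 in E18.5. The difference between E10.5 and E14.5 was not tested, and that between E10.5 and E18.5 did not pass (adjusted p = 0.785 and 1). The second call was lost without E10.5 wt replicate 1 and without either mutant. With limma neither call passed (adjusted p = 0.298 and 0.35). Groups of 2 or 3 libraries were too small for a check of single outlying samples.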

How the results depend on the processing

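Choosing the regions anew changed their number to 501 with at least 12 CpGs, 72 with a gap of at least 10 points, 5982 with each library centred on its median, and 3512 to 12798 when 1 E14.5 liver was left out, where fewer livers have to differ. The E10.5 mean difference was -1.55 points with 12 CpGs and -4.27 with the 10-point gap, and ranged from -1.3 to 0.685 with 1 library left out. It changed sign when the missing library was an E14.5 liver (0.685, 0.00938, 0.468 and 0.328 points). The E18.5 mean difference was -3.32 and -6.11 points under those rules and -3.2 to 1.08 with 1 library left out, changing sign at 1.08, 0.478 and 0.383 points. The share of regions with both mutants below both wild types in E10.5 was 30.9% with 12 CpGs, 43.1% with the 10-point gap, 21.3% with regions shifted by 500 bp, 29.1% with centred libraries (22.6% of all regions) and 13.7% to 40.5% with 1 library left out (20.7% to 23.2% of all regions when it was an E10.5 library). In E18.5 it was 36.2% at a coverage of at least 10 reads, 42.1%, 58.3% and 35.3% (22.3% of all regions) under the same CpG, gap and centring rules, and 12.2% to 54.9% with 1 library left out (10.6% to 30.6% of all regions when it was an E18.5 library). Regions called lower in E10.5 numbered 0 with limma, 7 with a difference of at least 15 points, 5 with the 10-point gap and 3 to 18 with 1 library left out, and in E18.5 1 with limma, 2 with the 10-point gap and 0 to 28. Over all 574594 regions the main fit called 79 lower in E10.5 and 55 in E18.5. Limma called 1 and 15 of all regions, and requiring a difference of at least 15 points left 15 and 19. The numbers called changed when 1 library was left out, among the chosen regions and over all regions alike, in fits that kept 1 library in a genotype. The change between stages was called at 0 of the chosen regions in each alternative run. Genes called in RNA-seq numbered 532 without a filter on low counts and 66 to 224 with 1 library left out. Those near the regions numbered 11 and 2 to 4 in the same fits. DESeq2 called 6 near the regions, and it also called more of all genes than the main fit did. Within 10000 bp of a region 5 of 427 tested genes were called, which is 1.17% beside 1.39% of all genes. Zfp507 held 2 of the regions with the 10-point gap and 9 to 18 under the other rules, a comparison added after the data were seen. The cause of these changes was not tested, apart from fewer libraries or regions entering. Of the values of named regions and genes under the alternatives, 129 and 72 kept their side of the threshold and 78 and 27 did not pass, and none changed sign.

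With the replicate number as a block, 460 of 14183 genes were called, 9 of them among the 192 near the regions. The block called 25 of the 1183 regions lower in E10.5, beside 240 of all 574594. In E18.5 it called 9, beside 46 of all. The deviations of same-numbered methylation libraries correlated by 0.0465 in E10.5, 0.00738 in E14.5 and -0.0135 in E18.5. Same-numbered E14.5 bisulphite livers were of the same sex, and the paper calls the E14.5 bisulphite livers littermates.

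A median region had a counting error of 2.26 points in an E14.5 liver, with fewer reads at the other stages.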

Other observations

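Genes called in E14.5 liver RNA-seq that held 1 or 2 of the regions in their body, besides those named in the report, were Dnahc8, Atp2b2, Gsn and Prkar2a, which fell (edgeR log2 fold changes of -1.52, -1.92, -0.82 and -0.45), and Mmrn1 and P4ha1, which rose (0.62 and 0.42). In all, 9 of 450 tested genes with a region in their body were called, 2% beside 1.39% of all genes, and the body of a gene was not fixed as a list beforehand. At Atp2b2, a calcium pump gene, a start site at chr6:113992001-113993000 had 10.6% and 12.8% methylation in E10.5 wild types against 21.2% and 23.9% in mutants (adjusted p = 0.00963). In E18.5 mutants it had 5.66 points more (adjusted p = 0.728). It was picked after the values were seen, and no other start-site region of this gene passed at either stage. The adjacent region, chr6:113991001-113992000 with 57 CpGs, differed by -0.142 points in E10.5 and 0.12 in E18.5.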
